A study of Mus musculus with 3 samples.

Results

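The genes described here are 9 genes of the B lineage, Cd79a, Cd79b, Ms4a1, Pax5, Ebf1, Blnk, Vpreb1, Ighm and Jchain, as measured in sorted CD4+ CD8+ double-positive (DP) mouse thymocytes. Each was followed through the probe sets that carry its symbol and no other in the platform's annotation, and where a gene had several, the brightest by its mean over the 3 arrays stood for it. All 9 had at least 1 such probe set, out of 19938 genes measured. The samples were 3 pools of DP thymocytes from wild-type C57BL/6 mice of 5 to 6 weeks, each from its own cohort of littermates, sorted on magnetic beads for CD8 and then CD4, with 1 array per cohort. No other genotype, treatment or cell type is among the samples, so there is no control group, and comparisons were made between genes on an array and between the 3 cohorts. The sort takes cells that carry both coreceptors, and the protocol describes no step that depletes B cells, plasma cells or other cells by a marker of their own.

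B cells build their antigen receptor from an immunoglobulin heavy chain and a light chain, which signal through the paired chains encoded by Cd79a and Cd79b. Early in B cell development, the transcription factors encoded by Tcf3, Ebf1 and Pax5 act in sequence to install this programme, and a surrogate light chain that includes the product of Vpreb1 tests the new heavy chain. T cells use the CD3 chains, the pre-T cell receptor alpha chain and their own adaptors and kinases in the corresponding places, and the thymus holds a small resident population of B cells and some plasma cells.

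The values are log2 expression values on a scale where the 3 arrays have nearly the same distribution. A value is called above background where it exceeds the 95th percentile, on the same array, of 117 genes that are specific to organs such as liver, muscle, brain and testis. That limit was 7.27, 7.44 and 7.36 on arrays 1, 2 and 3, and 5 of those 117 genes exceeded it throughout. Signal depends on a set's probes as well as on the RNA, so each gene is read against the limit and against itself on the other arrays, and not against the level of another gene. Array 1 stood somewhat apart. Across 28939 probe sets, Pearson's r was 0.993 for array 1 with either of the others, and 0.996 for arrays 2 and 3 with each other. Xist, the RNA of the inactive X chromosome, had values of 11.65, 5.40 and 5.68 on arrays 1, 2 and 3, so array 1 also differed from the others in this RNA of female cells. The label of the sort was borne out by its markers, since all 7 DP stage genes examined lay above background on every array, among them Cd4 (11.59, 11.88 and 11.76), Cd8a (13.03, 13.27 and 13.26), Cd8b1 (11.76, 12.05 and 12.08) and Rag1 (13.39, 13.56 and 13.57). Of the 7, only Cd3e was higher on array 1 than on array 2. The median difference between arrays 1 and 2 was -0.29 log2 units, against -0.02 over all genes. Rag2, with 8.69, 9.51 and 9.54, differed most.

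Of the 9 B-lineage genes, 1 lay above background on all 3 arrays, Cd79b, and the other 8 did not exceed the limit on any array. Over all genes measured, 41.6% exceeded the limit on all 3 arrays and 45.0% on at least 1. With the 99th percentile of the organ genes as the limit, Cd79b was again the only member above it on all 3 arrays, as were 34.9% of all genes. The median of the 3-array means was 6.12 for the 9 genes, 5.94 for the 117 genes of other organs and 6.85 for all genes. In bulk samples, few cells with much RNA and many cells with little RNA of a gene cannot be told apart. A value below the limit therefore describes the pool and not single cells. Signal depends also on a set's probes, and no B cell sample shows what these probe sets read where the genes are active.

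**Figure D1:**
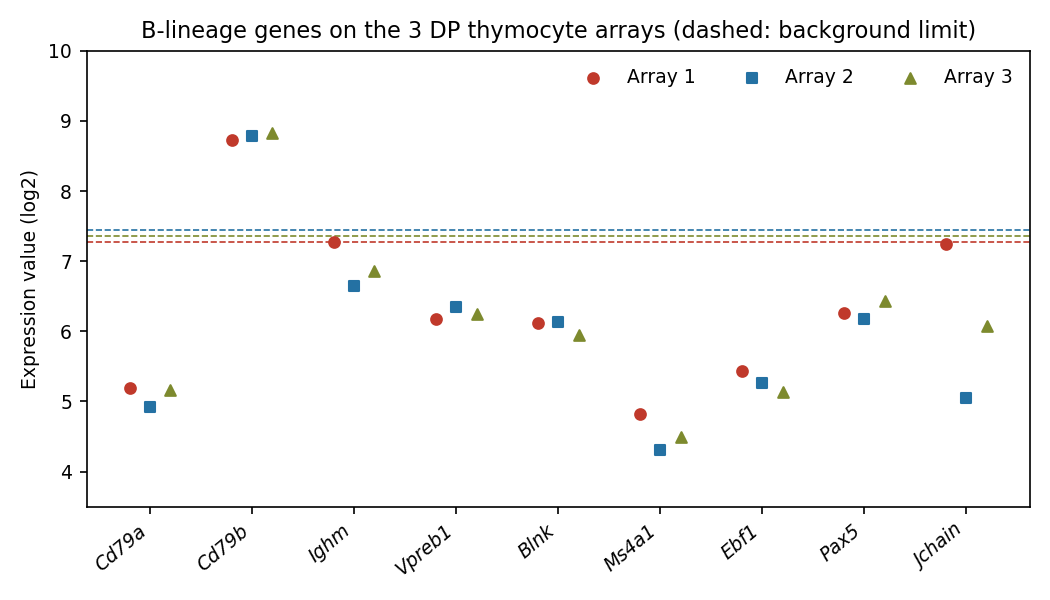
Log2 expression values (vertical axis) of the 9 B-lineage genes, 1 point per array, with the background limit of each array as a dashed line in the array's colour. Cd79b sits above the limits on all 3 arrays, Ighm reaches the limit and Jchain comes within 0.03 of it on array 1 alone, and the other 6 genes lie below it on every array.

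The signalling chains of the B cell receptor behaved unlike each other. Cd79b, which encodes the Ig-beta chain, had 8.73, 8.79 and 8.83 on arrays 1, 2 and 3, a mean of 8.78 ± 0.05 (SD, n = 3). It exceeded the limit by 1.46, 1.35 and 1.47 log2 units. Cd79a, which encodes the partner chain Ig-alpha, had 5.19, 4.92 and 5.17, a mean of 5.09 ± 0.15. It lay 2.08, 2.52 and 2.19 log2 units below the limit. Both chains are needed for a B cell receptor to reach the cell surface, and 1 of the pair was detected on all 3 arrays and the other on none.

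The Cd79a promoter is a textbook case in B cells of an ETS protein at a site that it binds well only together with Pax5, and Ets1 was among the proteins that the project behind these arrays mapped in thymocytes. Its sequence is shown because it puts that site beside the value of a gene that the arrays did not detect. The letters are the RefSeq window from 250 bases before to 50 after the annotated start (GRCm38.p6, chr7:24897247-24897546, plus strand), given 5′ to 3′. Capitals mark the ETS variant CCGGAG, here on the opposite strand as CTCCGG, and each match of the E-box CANNTG, the motif of E proteins.
Cd79a: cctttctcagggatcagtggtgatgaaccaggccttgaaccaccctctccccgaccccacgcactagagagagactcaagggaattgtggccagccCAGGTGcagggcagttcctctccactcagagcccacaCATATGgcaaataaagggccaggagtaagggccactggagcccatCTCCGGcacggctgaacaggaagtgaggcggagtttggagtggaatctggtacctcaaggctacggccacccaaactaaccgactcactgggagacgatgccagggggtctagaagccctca
The CCGGAG match ran from -72 to -67, counted from the start base as 0. On either strand, CCGGAG was present in 17.5% of the 32851 promoter windows of the same length, and CANNTG in 72.3%, so neither match sets this promoter apart. A match is a string of letters and not a measured binding site. RefSeq windows were at hand for 6 of the 9 genes, Cd79a, Pax5, Ebf1, Vpreb1, Blnk and Jchain, and not for Cd79b, Ms4a1 and Ighm.

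Heavy chain and surrogate light chain transcripts lay near or below the limit. Ighm, the constant region of the mu heavy chain, had 7.27, 6.64 and 6.86 on arrays 1, 2 and 3 with its brightest probe set, a mean of 6.92 ± 0.32. The value on array 1 was equal to the limit and the other values were 0.80 and 0.50 below it. The heavy chain locus is known to be transcribed, and in part rearranged from D to J, in some thymocytes. A further 2 probe sets carry the Ighm symbol, with 6.51, 5.99 and 6.21 in the first and 5.72, 4.36 and 3.47 in the other, all below the limit. The 3 probe sets shared the property that array 1 was the highest, and they disagreed on whether array 2 or array 3 was the lowest. Vpreb1, a surrogate light chain component, had 6.18, 6.34 and 6.25, a mean of 6.26 ± 0.08 that was 1.09 to 1.11 below the limit. Of the other 3 surrogate light chain genes, Vpreb2 exceeded the limit on all arrays, with 7.56, 7.80 and 7.40, while Vpreb3 and Igll1 did not on any. Vpreb2 is a near-identical copy of Vpreb1, the files do not show which bases its probes read, and with the 99th percentile of the organ genes as the limit it no longer lay above background.

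Blnk encodes SLP-65, the adaptor that links the B cell receptor to its downstream enzymes, and is the counterpart of Lcp2, which encodes SLP-76 in T cells. Blnk had 6.12, 6.14 and 5.95 on arrays 1, 2 and 3, a mean of 6.07 ± 0.10, and lay at least 1.15 below the limit on each array. Its promoter window is printed because it was the only window of the 6 genes to hold the octamer ATGCAAAT, an element known from immunoglobulin promoters, which was present in 1.74% of all promoter windows on either strand. The window is chr19:40994172-40994471 on the minus strand (GRCm38.p6, RefSeq), and capitals mark the octamer, here on the opposite strand as ATTTGCAT from -130 to -123, and each CANNTG.
Blnk: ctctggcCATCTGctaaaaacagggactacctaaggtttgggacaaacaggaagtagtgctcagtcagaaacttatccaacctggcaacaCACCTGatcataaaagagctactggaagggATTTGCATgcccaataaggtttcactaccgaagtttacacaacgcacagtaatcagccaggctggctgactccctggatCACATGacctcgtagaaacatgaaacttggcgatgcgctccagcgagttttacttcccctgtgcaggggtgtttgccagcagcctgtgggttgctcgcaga
No match of the EBF core CCCNNGGG, which 13.7% of all windows held, was present in the windows of the 6 genes, and the RUNX motif TGTGGT, held by 16.8% of all windows, was present in 1 of the 2 windows of Ebf1 and in none of the others. The absence of a match says only that these letters are not in these windows.

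The counterparts of these genes in T cells were all detected. All 8 counterparts examined lay above the limit on every array. Cd3d had 11.43, 11.52 and 11.56, Cd3e 12.29, 12.01 and 11.94, Cd3g 12.68, 12.88 and 12.94, and Cd247 10.47, 10.40 and 10.37, all chains of the CD3 complex that hold the place of Cd79a and Cd79b. Ptcra, whose product pairs with the T cell receptor beta chain before alpha is made and which holds the place of the surrogate light chain, had 8.23, 8.44 and 8.35. Lcp2 had 10.93, 11.12 and 11.15, against the undetected Blnk. Zap70, a kinase that binds phosphorylated CD3 chains, had 10.14, 10.43 and 10.49, and Lat, a membrane adaptor, had 12.42, 12.37 and 12.26. The smallest of these values, those of Ptcra, were clear of the limit on each array by more than the SD of 0.11 between arrays.

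**Figure D2:**
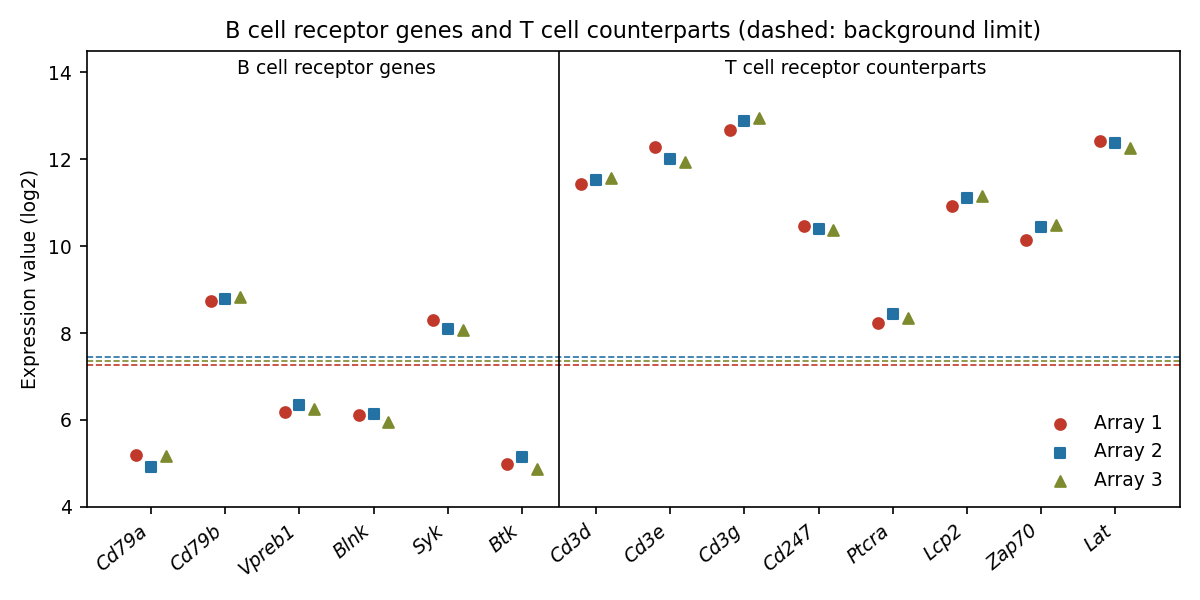
Log2 expression values (vertical axis) of B cell receptor genes on the left and of their T cell counterparts on the right, 1 point per array, with the background limit of each array as a dashed line. Heights of different genes depend on their probes, so each is to be read against the limit: Cd79b and Syk on the left exceed it on all 3 arrays, and all 8 genes on the right do.

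Genes that act downstream of the B cell receptor lay on both sides of the limit. Of 14 measured genes, 6 lay above it on all arrays (42.9%), a share near the 41.6% of all genes. These were Cd81, a tetraspanin of the B cell coreceptor complex, with 10.58, 10.79 and 10.76, Syk, the kinase recruited by Cd79a and Cd79b, with 8.31, 8.10 and 8.06, and Dapp1, an adaptor for phosphoinositide signals, with 8.53, 8.50 and 8.49. The adaptor Grb2 (9.68, 9.82 and 9.69), the exchange factor Vav1 (10.63, 10.99 and 10.89) and the kinase gene Prkcb (11.16, 11.26 and 11.28) were the others. The 8 below the limit on every array were Cr2, Cd22, Cd72, Blk, Btk, Plcg2, Pik3ap1 and Bank1. Btk, the Tec kinase that Blnk helps to activate, had 4.99, 5.14 and 4.87, and Cd22, an inhibitory coreceptor, had 5.52, 5.76 and 5.58.

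Surface genes of mature B cells were at background with few exceptions. Ms4a1, which encodes CD20, had 4.82, 4.31 and 4.49 on arrays 1, 2 and 3, a mean of 4.54 ± 0.26, and lay between 2.45 and 3.13 below the limit. Of 14 further surface genes, 2 lay above the limit on all arrays (14.3%, against 41.6% of all genes). These were the tetraspanin gene Cd37 (10.27, 10.29 and 10.16) and Tnfrsf13c, the BAFF receptor gene (7.41, 7.50 and 7.50). H2-Ob, a class II accessory chain, exceeded the limit on array 1 alone, with 7.38, 6.96 and 6.75. The other 11, among them Cd40, Cd180, Fcer2a and Cxcr5, did not exceed it on any array. Tnfrsf13c was within 0.14 of the limit on each array and did not exceed the 99th percentile of the organ genes.

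The factors that commit cells to the B lineage were not detected, while the E protein gene that stands above them was. Ebf1 had 5.44, 5.26 and 5.14 on arrays 1, 2 and 3, a mean of 5.28 ± 0.15, at least 1.83 below the limit on each array. Pax5 had 6.26, 6.18 and 6.43, a mean of 6.29 ± 0.13, at least 0.93 below the limit. Among 16 further transcription factor and early lymphoid genes, 8 lay above background on all arrays, against 41.6% of all genes. Tcf3, which encodes the E proteins E12 and E47, had 10.38, 10.63 and 10.57, Ikzf1 had 11.72, 11.73 and 11.81, and Ikzf3 had 11.09, 11.35 and 11.30. The recombination genes Rag1, Rag2 and Dntt, which both lineages use, were also among the 8. The last were Foxo1 and Bach2, with 9.82, 9.02 and 8.91 and with 8.49, 7.78 and 7.92 on arrays 1, 2 and 3. Both were highest on array 1, and neither passed the test of spread between arrays described below (limma, Benjamini-Hochberg adjusted p = 0.861 and 0.988). Irf8, a factor gene of B and myeloid cells, and Il7r exceeded the limit on array 1 alone. Pou2af1, Pou2f2, Spib, Spi1, Bcl11a and Irf4 did not exceed it on any array. Spi1, which encodes PU.1 and which B and myeloid cells use, had 5.67, 5.85 and 5.55.

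Jchain encodes the joining chain of secreted IgM and IgA and is a product of plasma cells. Of the 9 genes, each read by its brightest probe set, Jchain varied most. The dimmest of the 3 Ighm probe sets had a slightly larger SD, 1.13. It had 7.24, 5.05 and 6.08 on arrays 1, 2 and 3, a mean of 6.12 ± 1.10. The value on array 1 was 0.03 below the limit, those on arrays 2 and 3 were 2.39 and 1.28 below it, and the values of arrays 1 and 2 differed by 2.19 log2 units. Its SD was above those of all 4093 other genes with a mean within 0.5 of its own, whose median SD was 0.12. Among all 19938 genes, 8 had a larger SD. The RefSeq promoter window of Jchain is given because the gene varied most of the 9 by brightest probe set. It is chr5:88527848-88528147 on the minus strand (GRCm38.p6), with each CANNTG in capitals.
Jchain: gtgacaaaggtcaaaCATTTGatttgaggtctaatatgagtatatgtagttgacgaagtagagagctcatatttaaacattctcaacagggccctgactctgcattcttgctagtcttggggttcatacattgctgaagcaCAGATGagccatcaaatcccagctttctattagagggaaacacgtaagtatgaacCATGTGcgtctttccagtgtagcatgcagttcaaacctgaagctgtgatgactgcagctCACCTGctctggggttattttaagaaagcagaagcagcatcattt
It held 4 matches of CANNTG, against 3 for Blnk, 2 for Cd79a, 1 each for Pax5 and Vpreb1, and 0 and 2 for the 2 windows of Ebf1. The arrays carry no measure of binding, so this is a description of the letters.

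**Figure D3:**
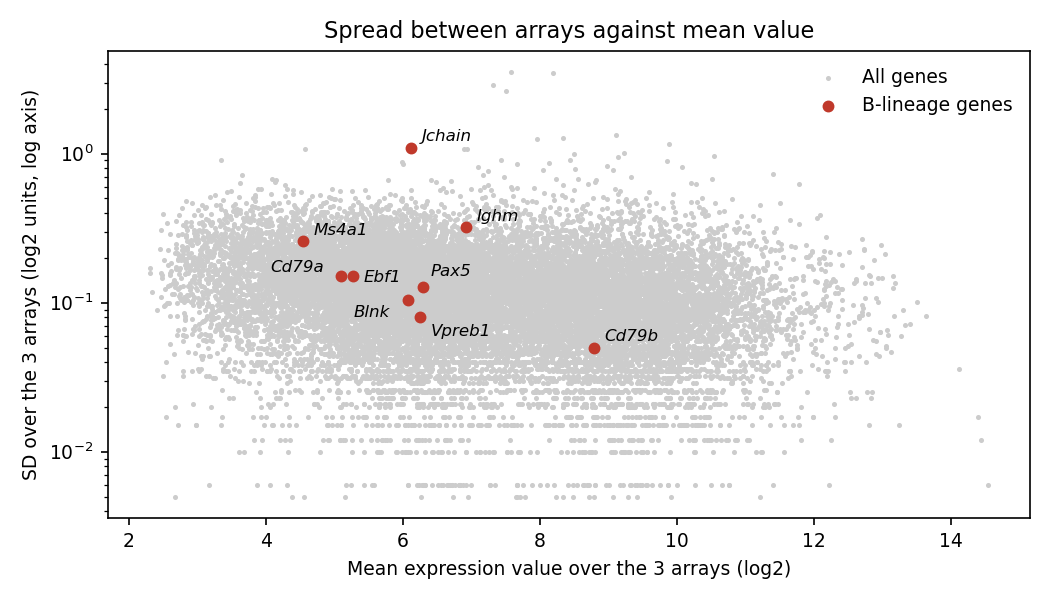
SD over the 3 arrays (vertical axis, log scale) against the mean log2 expression value (horizontal axis) for all 19938 genes in grey, with the 9 B-lineage genes in red; SDs under 0.005 are drawn at 0.005. Jchain, with a mean of 6.12 and an SD of 1.10, lies above the cloud at its mean, while Cd79b, with an SD of 0.05, lies in the lower part of it.

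The spread of each probe set over the 3 cohorts was compared with that of probe sets of the same mean by a variance test in limma, adjusted by Benjamini-Hochberg over 28939 probe sets. Of the 9 genes, 0 passed at an adjusted p under 0.05, and 2 had an unadjusted p under 0.05, Jchain and Ighm. Over all probe sets, 6 passed, or 0.0207%, and 1350 (4.66%) had an unadjusted p under 0.05. Xist was among those that passed, with an SD of 3.53 (limma, adjusted p = 0.00871). With 3 arrays, a gene that did not pass is not thereby shown to be even between them. For Jchain the SD was 1.10 against 0.134 for the prior at its mean (limma, adjusted p = 0.352). Over the alternatives that kept its probe set, the adjusted p of this limma test ranged from 0.15 to 0.972. The difference between cohorts therefore did not pass the correction over the whole array. For the brightest probe set of Ighm the SD was 0.32 against 0.126 (limma, adjusted p = 0.988). The other 2 Ighm probe sets had SDs of 0.26 and 1.13 (limma, adjusted p = 0.988 and 0.436). The SDs of the other 7 genes were between 0.05 and 0.26, and 20.5% of genes of a like mean had a lower SD than Cd79b, against 86.4% for Ms4a1.

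Immunoglobulin probe sets with several symbols mostly had the full order of Jchain over the 3 arrays. Those with a single symbol mostly did not, though most of them were higher on array 1 than on array 2. A group of 14 probe sets carries several symbols, all of them immunoglobulin genes, and was examined after its values were seen. No gene can be named from such a probe set, and several of the 14 share symbols and so are not independent of each other. Their values ran from 4.17 to 7.89 on array 1 (median 7.13), from 3.65 to 6.82 on array 2 (median 5.55) and from 4.41 to 7.06 on array 3 (median 6.10). Of the 14, 13 were highest on array 1 and all 14 were lowest on array 2, so that without array 1 array 2 was still below array 3 for all 14. Over all genes, 34.5% were highest on array 1 and 27.8% were lowest on array 2. On array 1, 7 of the 14 exceeded the limit, and 0 did on array 2 or on array 3. The difference between arrays 1 and 2 ranged from 0.52 to 2.18 log2 units with a median of 1.54, against -0.02 for all genes. Of the 14, 13 had an unadjusted p under 0.05 in the variance test, as did 4.66% of all probe sets. After adjustment over all probe sets, 0 of the 14 passed, against 0.0207% of all. A further 10 immunoglobulin genes have a probe set of their own, 0 of which exceeded the limit on any array. Of these 10, 6 were highest on array 1, 4 were lowest on array 2 and 2 were both (20.0%, against 16.9% with array 1 highest and array 2 lowest over all genes). The 10 had a median difference between arrays 1 and 2 of 0.54 log2 units. Array 1 was above array 2 for 8 of them, and for 9045 of all 19938 genes. Named after their values were seen, Igha, the heavy chain of IgA, had 7.19, 5.95 and 6.96, Igkv10-96, a kappa variable segment, had 5.80, 4.07 and 3.83, and Ighg3, the heavy chain of IgG3, had 3.27, 3.57 and 3.01, so that array 2 was the highest of the 3 for Ighg3.

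**Figure D4:**
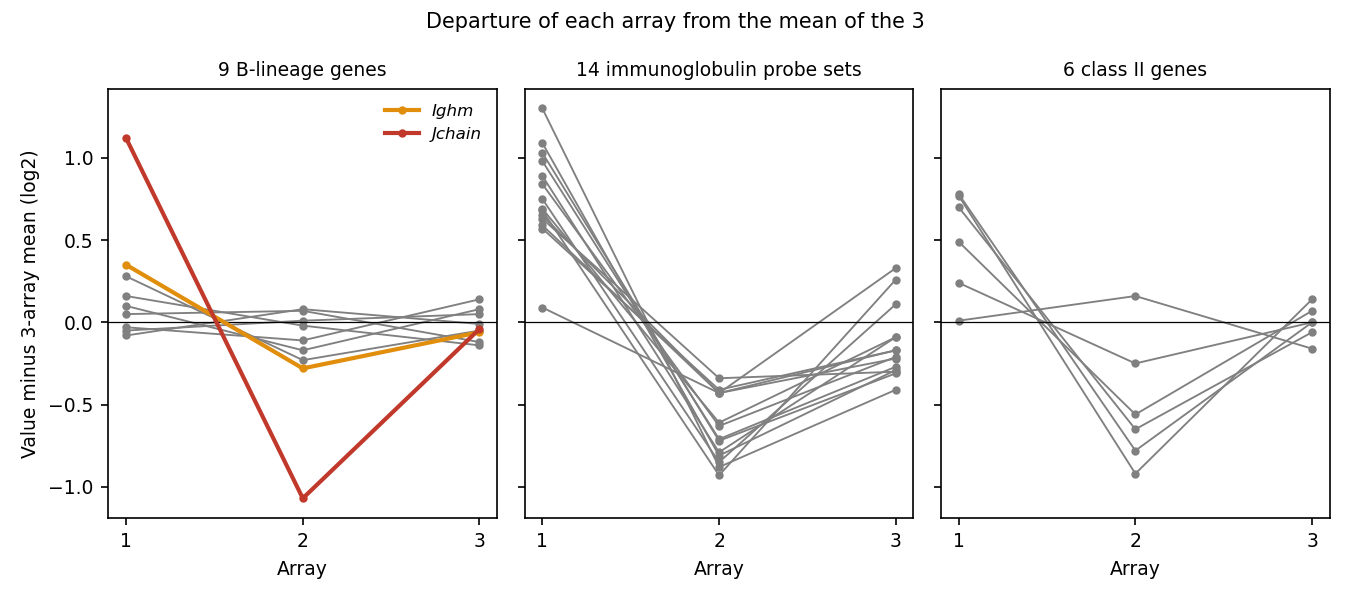
Difference of each array from the 3-array mean (vertical axis, log2 units) on arrays 1, 2 and 3 (horizontal axis) for the 9 B-lineage genes, the 14 immunoglobulin probe sets with several symbols and 6 class II genes, 1 line per gene or probe set; lines only join values of the same gene. Jchain and 13 of the 14 immunoglobulin probe sets are highest on array 1 and lowest on array 2, as are 5 of the 6 class II genes. Each B-lineage gene is drawn by its brightest probe set, and those other than Jchain lie within 0.35 of their own mean.

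Genes of other cells that a thymus preparation can hold differed between the arrays as well, as did an early response gene, and their part in the Jchain and immunoglobulin values was not tested. Fos, which cells induce within minutes of handling or stimulation, had 9.39, 7.86 and 8.27 on arrays 1, 2 and 3, highest on array 1 and lowest on array 2. B cells, dendritic cells and epithelium use the class II pathway. Of 6 of its genes, 5 were highest on array 1 and lowest on array 2 (83.3%, against 16.9% of all genes). Cd74, the invariant chain, had 8.83, 7.27 and 8.05, H2-Aa had 8.44, 6.75 and 7.81, H2-Ab1 had 9.26, 7.91 and 8.50, and H2-Eb1 had 8.82, 7.77 and 8.40. The medians of the class II list were 8.63, 7.24 and 7.93 on arrays 1, 2 and 3. None of these 4 genes passed the adjustment over all probe sets (limma variance test, adjusted p from 0.436 to 0.861). Ciita, the regulator of the class II genes, was the exception in order, with 6.12, 6.27 and 5.95. Of 8 macrophage and dendritic markers, 0 exceeded the limit on all arrays and Cd68 did on array 1, with 7.45, 6.99 and 7.27. Of the 8, 5 were highest on array 1 and 4 were also lowest on array 2, and the list medians were 6.50, 6.15 and 6.35, with Itgax, Csf1r, Adgre1 and Itgam below the limit on every array. Of 5 markers of NK cells, Gzma (8.61, 8.08 and 8.18) lay above it, and Ncr1, Klrb1c and Klrk1 did not. All 5 were highest on array 1, against 34.5% of all genes, and the medians were 5.57, 4.78 and 4.77. Siglech, a defining gene of plasmacytoid dendritic cells, was below the limit with 6.02, 6.12 and 5.95, while Bst2, Ccr9 and Tcf4, which other cells also express, were above it on all arrays, as was Ly6d. Of 6 thymic epithelial markers 0 exceeded the limit on all arrays, among them Foxn1, Psmb11, Krt8 and Epcam, with medians of 6.47, 6.76 and 6.90. Of 3 measured erythroid markers, Alas2, Klf1 and Slc4a1, 0 exceeded it on any array.

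Other genes of plasma cells had smaller spreads over the arrays than Jchain, with a median SD of 0.22 and a largest of 0.44, for Irf4. The median SD over all genes was 0.11. Of 8 plasma cell genes, 5 were highest on array 1 (62.5%, against 34.5% of all genes). The order of Jchain, with array 1 highest and array 2 lowest, held for 3 (37.5%, against 16.9% of all genes). Above background on all arrays were 2 of the 8 (25.0%, against 41.6% of all genes), Xbp1 and Tnfrsf13b. Xbp1, a factor of the secretory programme that many cells use, had 9.90, 10.15 and 10.10. Tnfrsf13b, which encodes the receptor TACI, had 8.21, 8.65 and 8.66. Both had their lowest value on array 1, where Jchain had its highest. The other 6, Prdm1, Sdc1, Tnfrsf17, Mzb1, Irf4 and Derl3, did not exceed the limit on any array. Prdm1, the regulator of plasma cell fate, had 6.14, 5.64 and 5.96, and Irf4 had 7.09, 6.24 and 6.47, both highest on array 1 and lowest on array 2. Mzb1, a chaperone gene of immunoglobulin-secreting cells, had 6.82, 6.67 and 6.72, an SD of 0.08 that is below the median SD of 0.11 of the genes of other organs. Of the measured B cell markers, Cd79b lay above the limit on every array. Cd79a, Ms4a1, Pax5, Ebf1, Blnk, Cd22, Fcer2a and Cr2 lay below it on every array. Arrays 1 and 2 differed by 0.27, 0.51, 0.08, 0.18 and -0.02 log2 units for Cd79a, Ms4a1, Pax5, Ebf1 and Blnk. For Cd22, Fcer2a, Cr2 and Cd79b the differences were -0.24, 0.23, 0.09 and -0.06.

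T cell receptor segments were examined beside the immunoglobulin genes. Of 9 T cell receptor genes with a probe set of their own, 5 lay above background on all arrays (55.6%, against 41.6% of all genes). These were Trbv1 (10.72, 10.80 and 10.73), Trav14-1 (9.62, 9.67 and 9.79), Trav7n-5 (8.78, 8.52 and 8.79), Trdv2-2 (8.41, 7.95 and 8.18) and Trav13-5 (7.78, 7.69 and 7.67). The other 4 did not exceed the limit on any array. Over the 9, the difference between arrays 1 and 2 had a median of 0.09 and ran from -0.08 to 1.45, against a median of 0.54 and a range of -0.30 to 1.73 for the 10 immunoglobulin genes with a single symbol. The value of 1.45 belonged to Trgv1, a gamma variable segment below the limit with 7.01, 5.56 and 5.41, and was named after it was seen.

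The course of Cd79b over the arrays was shared with many genes. Among the 8303 other genes above background on all 3 arrays, the 3 whose departures from their own mean were nearest to those of Cd79b were Bub3, Mbtd1 and 1700052K11Rik, at Euclidean distances of 0, 0 and 0.008 log2 units over the 3 arrays. A distance under 0.05 was found for 782 genes, so the likeness over 3 arrays is shared by many genes and was taken no further.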

How the data were processed

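RNA was extracted with TRIzol and biotin-labelled, per the labels' protocols, which mention formaldehyde fixation before the sort and leave unsaid whether it applied to the array RNA. Per the submitters' processing notes, the affy package was used. For background correction, normalization and array build, settings were not given in the sources used here. Values were deposited by the authors as log2 expression values, a scale read from their range of 1.6 to 14.94. Sorted values differed by at most 0.15 between arrays.

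Of 35556 probe sets, 21789 have 1 symbol in the platform's annotation, 1621 several and 12146 none. A RefSeq table (GRCm38.p6), used for names, held the gene IDs of 21698 and changed 0 symbols. The 6617 lowest-numbered, unnamed probe sets were left out as a control block. Of the 19938 genes, 999 had several probe sets.

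The variance test (limma 3.58.1, R 4.3.3) set the residual variance of an intercept-only fit against a robust prior with a trend on the mean (upper-tail F test, Benjamini-Hochberg) and was tested on simulated data. Python 3.11.15, pandas 2.3.3 and numpy 2.4.6 served for the rest. With 3 arrays, each SD is imprecise. Motifs were searched on both strands.

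Members, lists and tests were chosen with earlier results of these data known. Of 130 genes listed for other organs, 117 were measured. The genes to be named were the 9 members, those on the minority side of the limit in each B-lineage list where that side held 8 or fewer, the T cell counterparts, the first 4 measured of each other list, receptor segments above background and the genes nearest to a detected member. Others were named after their values were seen. Alternatives were other limits, quantile normalization, median centring, averaged probe sets, other priors and leaving out each array.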

Additional observations from a re-analysis of the deposited data

How the results depend on the processing

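Cd79b alone lay above background on all arrays under each of the 8 alternatives run, including without any 1 array. The count of members above the limit on at least 1 array was 1, but 3 with the median of the organ genes plus 1 log2 unit as the limit, where Ighm and Jchain joined it, and 2 under median centring, where Ighm did. With the 99th percentile as the limit, 0 surrogate light chain genes and 1 B cell surface gene lay above it on all arrays. The mean of Ighm was 5.89 with its probe sets averaged, against 6.92. The number of probe sets past the variance test, 6 with all arrays, was 3 with a prior that was not robust and 0 without a trend or with dim probe sets left out, where 1157 and 539 had an unadjusted p under 0.05. It ranged from 0 to 18 when each array was left out, being 18 without array 1 and 0 without array 2 or array 3, with 1601, 1120 and 1013 at an unadjusted p under 0.05. The causes were not tested. The count of members past the variance test was 0 throughout, but with dim probe sets left out Cd79b was the only member tested. The SD of Jchain was 0.73 without array 1, 0.82 without array 2 and 1.55 without array 3. Of 180 values under alternatives, 169 stayed within the spread between arrays or within 1.5 times the count. Values below the limit carry little information on RNA level, which bounds what can be said of 8 of the 9 genes. No paired analysis was possible because there is 1 group.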
